A study of Mus musculus with 6 samples.

Results

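Genes used to recognise blood cells and macrophages were examined in the H3ac profiles of cultured bone mesenchymal stem cells (MSCs). They were taken as a possible sign of culture purity, and the share of blood cells was not measured. The genes were Ptprc, Spi1, Itgam, Csf1r, Cd68, Lyz2, Adgre1, Tyrobp, Laptm5 and Coro1a, 10 of 21938 protein-coding genes. A region of the deposited table was assigned to a gene when it overlapped the gene body extended by 5 kb on both sides. This gave 5 regions of 24431, 1 each for Spi1, Csf1r, Cd68, Tyrobp and Coro1a, whereas Ptprc, Itgam, Lyz2, Adgre1 and Laptm5 had none. Of the 5 regions, 3 lay over a start site of the gene itself (Spi1, Csf1r and Cd68). The regions of Tyrobp and Coro1a lay beyond the gene, over start sites of neighbouring genes.

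H3ac, the acetylated form of histone H3, was mapped by CUT&RUN, in which an antibody brings a nuclease to marked chromatin and the released DNA is sequenced. The 6 libraries came from mouse MSC cultures grown at 2% oxygen in αMEM with 10% FBS. Young cells (mice aged 3 to 5 months) and Old cells (18 to 22 months) were untreated, and OldAcetate cells (18 to 22 months) received 5 mM sodium acetate for 3 days, with 2 libraries in each group. The labels do not say whether the 2 libraries of a group came from separate animals or cultures, so the spread between them may be technical, and they name no cell sort.

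Bone MSCs grow out as adherent cells, and macrophages of the marrow and bone surface adhere to the same plastic. Macrophages descend from hematopoietic progenitors under the transcription factor PU.1, the product of Spi1, and depend on the receptor CSF1R. PU.1 binds GA-rich sites with the core GAGGAA in the promoters of many myeloid genes, many of which have few CpG dinucleotides. Histone acetylation marks active promoters and enhancers, so a promoter that is used in most cells of a culture usually carries H3ac, while one used only in a small admixture contributes few fragments.

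Promoter sequences show the kind of start site these genes have. RefSeq promoters (GRCm38.p6, 250 bases before to 50 after a start) were matched for 6 of the 10 genes, too few (under 80%) for a check over the whole group, which is therefore void. Printed below, with CG dinucleotides in capitals, are the promoters of Cd68, whose start lay under an H3ac region, of Coro1a, whose only region lay past its end, and of Itgam and Lyz2, which had no region. They are chr11:69666121-69666420 on the minus strand for Cd68, chr7:126704767-126705066 on the minus strand for Coro1a, chr7:128062390-128062689 on the plus strand for Itgam and chr10:117282223-117282522 on the minus strand for Lyz2.
Cd68: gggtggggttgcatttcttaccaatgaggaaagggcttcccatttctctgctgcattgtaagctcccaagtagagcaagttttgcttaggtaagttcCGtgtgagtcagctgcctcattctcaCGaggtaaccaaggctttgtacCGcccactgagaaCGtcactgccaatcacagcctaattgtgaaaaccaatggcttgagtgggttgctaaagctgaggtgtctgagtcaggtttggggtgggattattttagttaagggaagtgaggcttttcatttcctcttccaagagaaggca
Coro1a: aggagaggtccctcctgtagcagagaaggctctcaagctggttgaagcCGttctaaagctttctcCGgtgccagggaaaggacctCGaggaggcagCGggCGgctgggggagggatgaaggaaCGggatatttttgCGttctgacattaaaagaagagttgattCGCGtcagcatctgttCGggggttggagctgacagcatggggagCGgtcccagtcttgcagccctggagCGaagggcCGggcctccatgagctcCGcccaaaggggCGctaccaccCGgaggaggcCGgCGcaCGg
Itgam: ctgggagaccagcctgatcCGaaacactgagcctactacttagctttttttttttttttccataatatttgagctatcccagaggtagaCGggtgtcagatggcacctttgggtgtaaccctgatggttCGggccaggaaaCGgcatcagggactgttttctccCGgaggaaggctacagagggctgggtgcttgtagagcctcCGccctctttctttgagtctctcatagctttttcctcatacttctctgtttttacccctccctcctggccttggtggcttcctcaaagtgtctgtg
Lyz2: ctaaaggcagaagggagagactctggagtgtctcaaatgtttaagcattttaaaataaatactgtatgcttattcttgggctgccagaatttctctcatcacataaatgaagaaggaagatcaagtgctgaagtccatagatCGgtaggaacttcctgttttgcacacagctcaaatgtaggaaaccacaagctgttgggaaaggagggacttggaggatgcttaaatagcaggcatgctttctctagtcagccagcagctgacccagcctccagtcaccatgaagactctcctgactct

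The Lyz2 promoter held 1 CG, that of Cd68 held 4, that of Itgam held 6 and that of Coro1a held 19. A second RefSeq promoter of Coro1a held 10, that of Laptm5 held 9, and both promoters of Ptprc held 2 and 4. Over all 32851 RefSeq promoters, an H3ac region lay within 1 kb of the start of 15.8% of those with 0 to 4 CG, 33.0% with 5 to 9, 67.7% with 10 to 19 and 87.4% with 20 or more. Thus Cd68 was covered although promoters with as few CG mostly were not (its region also held other starts, as described with its values), and Coro1a was not covered although most promoters in its range were. The motif GAGGAA, counted on either strand, occurred 3 times in the Itgam promoter, 2 times in that of Cd68, 1 time in that of Laptm5 and in 1 of both Ptprc promoters, and 0 times in those of Lyz2 and Coro1a. It was present in 28.3% of all promoters, of which 44.2% were covered by a region, against 46.8% of promoters overall. These counts describe letters in a 300-base window only.

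Across the genome, 64.5% of protein-coding genes had a region within 5 kb of the body and 57.0% had one over a start site (within 1 kb). The 10 genes stood at 50% and 30%. The 5 genes without a region included general leukocyte genes and macrophage genes. Ptprc (chr1:138062861-138175708, minus strand), which encodes the leukocyte common antigen CD45, had its nearest region 17861 bp away. Laptm5 (chr4:130913125-130936141), a lysosomal membrane protein of blood cells, was 50125 bp from the nearest region. Among macrophage genes, Lyz2 (chr10:117277331-117282321, minus strand), encoding lysozyme, was 51831 bp away. Adgre1 (chr17:57358691-57483527), which encodes the mouse macrophage antigen F4/80, was 80691 bp away. Itgam (chr7:128062640-128118491), the CD11b integrin of myeloid cells, was 92140 bp away. For comparison, the 7783 protein-coding genes without a region had a median distance of 82168 bp to the nearest region (quartiles 25639 and 290925 bp). The table has no value for places without a region, so no level or upper limit can be given for these 5 genes. If the reads outside the regions were spread evenly, a 5 kb stretch would hold on average 2.05 to 2.69 reads per library. That average leaves out the reads of all listed regions, which held a median of 31 to 56 reads each per library.

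**Figure D1:**
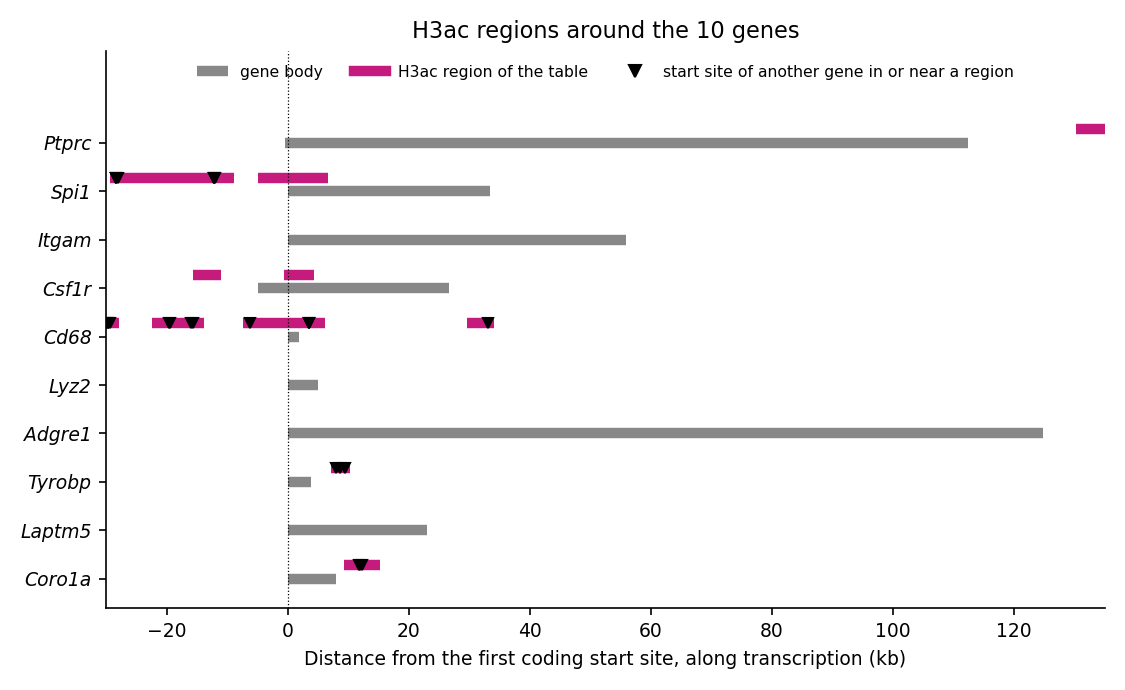
The 10 genes are drawn with the distance from the first coding start site along transcription (kb) on the x axis, gene bodies in grey, H3ac regions of the table in magenta and start sites of other genes as triangles. Regions reach the start of Spi1, Csf1r and Cd68, the regions of Tyrobp and Coro1a lie past the gene over other start sites, and the remaining 5 genes have no region within 5 kb.

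The Spi1 region (chr2:91077501-91089000, 11500 bp) ran from −4889 to +6610 bp relative to the start and covered no start of another gene. It was longer than the median region (5500 bp), with a mean of 1.78 RPM per kb (reads scaled to library size, RPM, divided by region length). The profile within a region is not given. Only 1.54% of all regions, and 0.564% of the 11165 regions over a protein-coding start, had a lower density. The next region lay 4000 bp farther upstream, over the starts of neighbouring genes. The Csf1r region (chr18:61105001-61110000, 5000 bp) ran from −571 to +4428 bp relative to the first coding start at position 61105572, and it too covered no other start. Csf1r encodes the receptor for the macrophage growth factors CSF1 and IL-34. Its region had 3.06 RPM per kb and was thus denser than that of Spi1, at percentile 69.5 of all regions and percentile 51.2 of the regions over starts. Pdgfrb, a mesenchymal receptor gene that lies next to Csf1r, ended 15536 bp before it, and the next region lay 10500 bp upstream, between both genes.

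The other 3 regions could not be assigned to the macrophage gene alone. Cd68, a lysosomal glycoprotein abundant in macrophages, is a short gene (chr11:69664213-69666153, minus strand) that lay wholly within a region of 13500 bp (chr11:69660001-69673500). This region also covered starts of Eif4a1, a translation initiation factor used by all cells, and of Mpdu1, which acts in protein glycosylation. Its density was 2.19 RPM per kb, at percentile 16.9 of all regions. The region assigned to Tyrobp, the gene of the signalling adaptor DAP12, began 3416 bp past the gene and covered the start of Nfkbid, which encodes a nuclear inhibitor of NF-κB (chr7:30421001-30424000, 3000 bp, 3.00 RPM per kb, percentile 66.6). The region assigned to Coro1a, which encodes an actin-binding protein of leukocytes, began 1273 bp past the gene and covered starts of Bola2, with a role in iron metabolism, and Slx1b, a DNA repair nuclease subunit (chr7:126692501-126698500, 6000 bp, 3.22 RPM per kb, percentile 76.0). Reads in these regions cannot be told apart by gene.

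The genome outside regions had 0.139 to 0.214 RPM per kb in the 6 libraries, and regions as a whole had 2.28 to 3.22 RPM per kb. A level above the rest of the genome follows from being listed as a region. The median region had 2.70 RPM per kb, with quartiles of 2.33 and 3.20, and the median region over a protein-coding start had 3.04. Spi1 and Cd68 thus lay below the lower quartile and Coro1a above the upper one. The 5 regions also carried the code that names all 3 groups, as did 80.6% of all regions. What the code means is not defined in the labels.

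**Figure D2:**
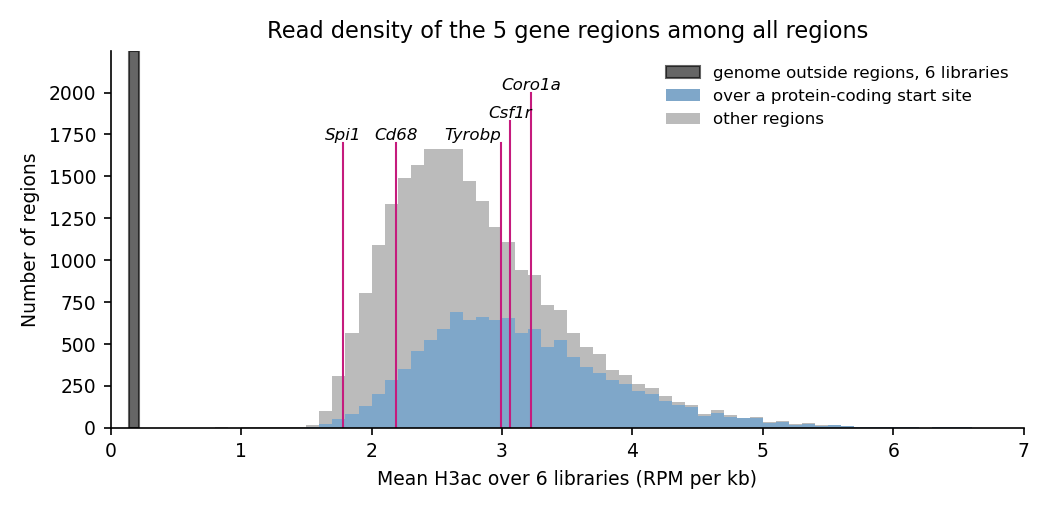
The histogram counts regions by mean H3ac over the 6 libraries (RPM per kb), with regions over a protein-coding start in blue and others in grey, and the dark band gives the genome outside regions. The Spi1 region sits at the lower edge of all regions at 1.78 RPM per kb, Cd68 at 2.19, and Tyrobp, Csf1r and Coro1a between 3.00 and 3.22.

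In lists drawn up with earlier results of these data known, all mesenchymal genes had a region over a start. No hematopoietic list exceeded 50% by that measure, against 57.0% of all protein-coding genes. The lists also differed in CG content, which went with cover over all promoters. The median CG count was 12 for 14 of 20 mesenchymal genes matched to a promoter and 23 for 8 of 10 ubiquitous genes. For hematopoietic lists it ranged from 3.5 (erythroid and megakaryocyte, 8 of 10 matched) to 18 (stem and progenitor, 7 of 8 matched). As few as 3 of 7 B cell genes and 5 of 10 osteoclast genes were matched. The median was 5 over the 6 matched of the 10 genes, too few to stand for the group. Whether CG content accounts for the difference in cover was not tested. Of 20 mesenchymal genes, 20 had a region over a start, with Cxcl12, a niche chemokine, at 3.70 RPM per kb and Twist2, a mesenchymal transcription factor, at 3.37. The median of the mesenchymal list was 2.91 RPM per kb, and its lowest members, named after their values were seen, were Eng (1.88), Lepr (2.09) and Col1a1 (2.31), near the densities of Spi1 and Cd68. The lists thus differed in how many genes were covered, with overlapping densities. Of 10 ubiquitous genes, 10 were covered, led by Tbp at 3.67 (shared with Psmb1) and B2m at 3.61 RPM per kb. Only 4 of the 10 had a region that covered no start of another gene, against 20 of 20 mesenchymal genes. Of 20 further macrophage and monocyte genes, 4 were covered. They included the endotoxin co-receptor gene Cd14 (2.46 RPM per kb, in a region shared with Tmco6), the Fc receptor chain gene Fcer1g (3.06) and the chemokine receptor gene Cx3cr1 (2.21). Of 10 pan-leukocyte signalling genes, 2 were covered, Hcls1 (1.95) and Ptpn6 (2.98, shared with Atn1 and Grcc10).

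Genes around CSF1R and the adaptor DAP12 were covered at 5 of 12 starts, and 10 of 12 (83.3%) had a region within 5 kb, against 64.5% of all protein-coding genes. Both ligand genes of CSF1R, which mesenchymal cells are known to produce, were among them, with Csf1 at 3.00 and Il34 at 2.29 RPM per kb. The others were the kinase gene Syk (2.12) and the transcription factor genes Cebpa (3.13) and Irf5 (2.60). Of 10 osteoclast genes, 5 were covered, comprising the acid phosphatase gene Acp5 (2.46), the protease gene Ctsk (2.96), Oscar (2.73, shared with Ndufa3), Ocstamp (1.71) and Nfatc1 (3.37). Several of these genes are also used by mesenchymal or other cells, so the lists are not exclusive to 1 cell type.

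Lists for other blood cells and for endothelium were covered at 0 of 7 (B cell) to 4 of 8 starts (stem and progenitor). Over all protein-coding genes the share was 57.0%. Of 10 neutrophil genes, 1 was covered (Camp, 3.24 RPM per kb), and of 7 B cell genes 0 were. Of 7 T cell genes, 1 was covered (Lck, 3.07). Erythroid and megakaryocyte genes were covered at 3 of 10, among them Klf1 at 3.00 and Itga2b at 2.38. Hematopoietic stem and progenitor genes were covered at 4 of 8 (Cd34 at 2.21, Myb at 2.28, Lmo2 at 3.09 and Gata2 at 3.46), and endothelial genes at 1 of 7 (Erg, 3.45). Within 5 kb of the gene, regions were found for 8 of 20 further macrophage genes, 4 of 10 pan-leukocyte, 5 of 10 osteoclast, 3 of 10 neutrophil, 2 of 7 B cell, 2 of 7 T cell, 4 of 10 erythroid, 4 of 8 stem and progenitor and 4 of 7 endothelial genes. The share within 5 kb over all protein-coding genes was 64.5%. No test was made of these counts, and the lists were drawn up with earlier results of these data known.

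**Figure D3:**
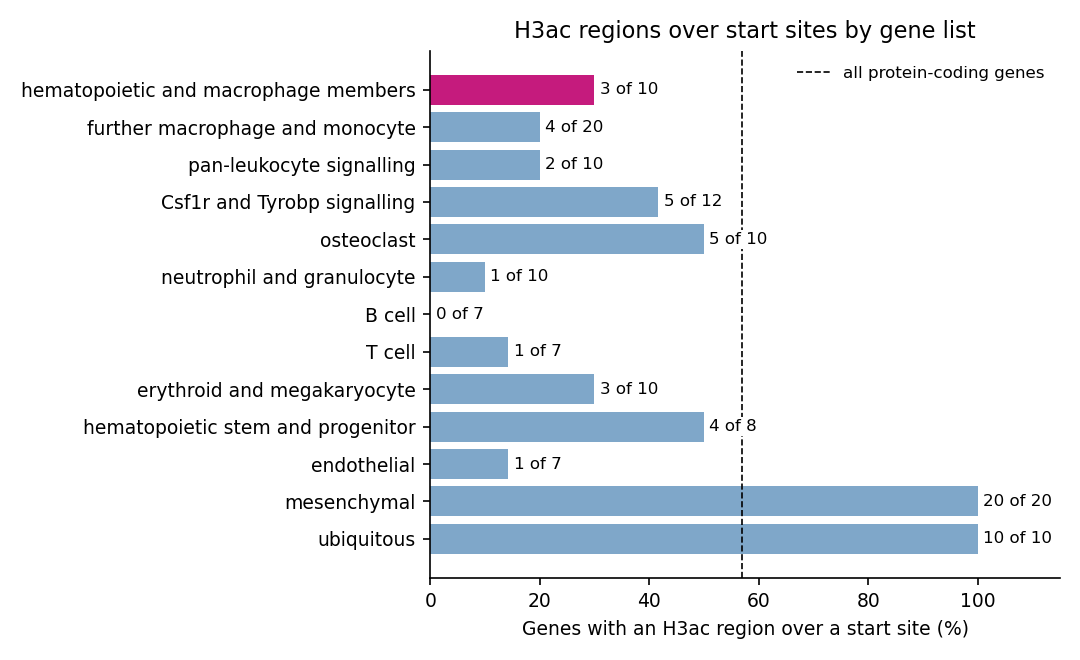
Bars give the percent of genes in each list with an H3ac region over a start site, with the counts beside them, and the dashed line marks all protein-coding genes (57.0%). The 10 hematopoietic and macrophage genes stand at 3 of 10, and the mesenchymal and ubiquitous lists at 20 of 20 and 10 of 10.

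The levels of the 5 regions were next set out by library, first as deposited (RPM, not divided by length and not scaled further). The Spi1 region had 22.7 and 22.5 RPM in Young replicates 1 and 2, 17.1 and 17.9 RPM in Old, and 19.8 and 22.9 RPM in OldAcetate. Both Old libraries thus lay below the other 4. The Csf1r region had 21.4 and 19.2 RPM in Young, 15.2 and 9.94 RPM in Old, and 11.4 and 14.6 RPM in OldAcetate. Here both Young libraries lay above all others, and Old and OldAcetate overlapped. The Cd68 region had 33.6 and 29.0 RPM in Young, 27.7 and 27.4 RPM in Old, and 27.2 and 32.5 RPM in OldAcetate, so that OldAcetate spanned the Old values and overlapped Young.

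The regions over neighbouring starts had the fewest reads (Tyrobp) and the widest OldAcetate pair in RPM (Coro1a). The Tyrobp region had 12.8 and 11.8 RPM in Young, 6.47 and 8.35 RPM in Old, and 9.41 and 5.00 RPM in OldAcetate. Both Young libraries were higher than the other 4. The Coro1a region had 21.4 and 21.6 RPM in Young, 16.2 and 17.1 RPM in Old, and 23.9 and 15.9 RPM in OldAcetate. The OldAcetate libraries lay on either side of all the others. The counts behind these values ranged from 12 reads (Tyrobp, OldAcetate replicate 2; 95% exact Poisson interval 6.20 to 20.96) to 102 reads (Cd68, Young replicate 1; 83.2 to 124). These intervals cover counting error only.

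**Figure D4:**
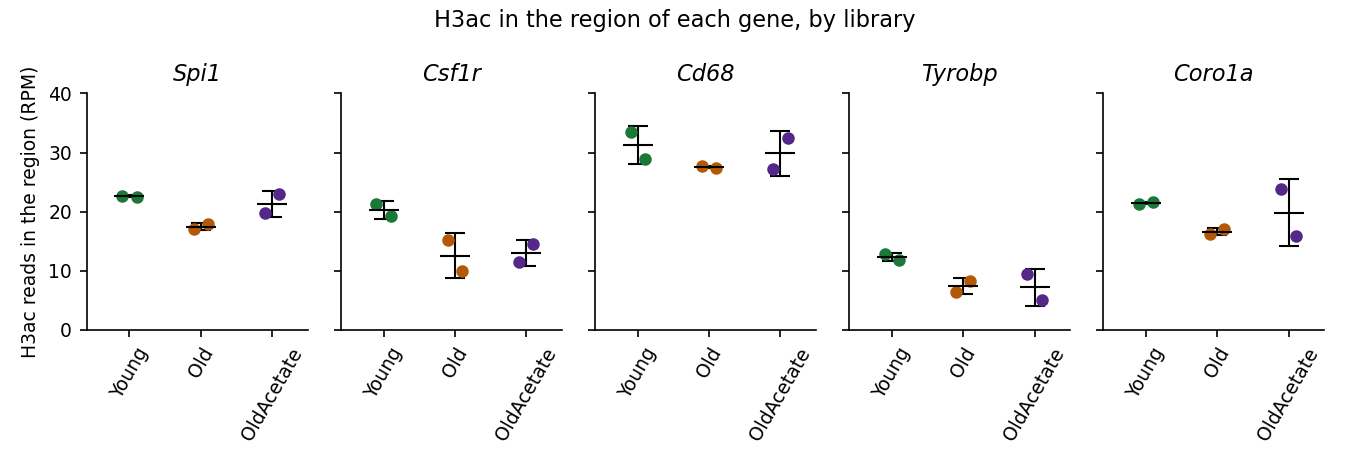
Each panel shows 1 region, with reads scaled to library size (RPM) on the y axis from 0, a point for each library, and the group mean with its SD (n = 2) as bars. Both Young libraries lie above both Old libraries in all 5 panels, and the OldAcetate pair is widest for Coro1a, at 23.9 and 15.9 RPM.

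Between Young and Old, the 5 regions had lower RPM in Old, as most regions of the table did. Mean levels in Young and Old were 22.6 ± 0.167 and 17.5 ± 0.561 RPM for Spi1 and 20.3 ± 1.55 and 12.6 ± 3.76 RPM for Csf1r (SD, n = 2). They were 31.3 ± 3.22 and 27.6 ± 0.207 RPM for Cd68, 12.3 ± 0.697 and 7.41 ± 1.33 RPM for Tyrobp, and 21.5 ± 0.186 and 16.6 ± 0.653 RPM for Coro1a. Both Old libraries were below both Young libraries in 5 of 5 regions, as they were in 60.2% of all regions, and they were above in 0 of 5 (1.29% of all regions). Summed over the 5 regions, H3ac was 112 and 104 RPM in Young against 82.7 and 80.7 RPM in Old, a ratio of 0.757. The ratio was 0.781 over all regions, 0.789 over the starts of the mesenchymal genes and 0.768 over those of the ubiquitous genes. The 4 ratios thus lay between 0.757 and 0.789, and the differences among them were not tested. Library totals ranged from 2163351 to 3039481 reads, and 64.8% and 57.8% of the reads of the Young libraries lay in regions, against 49.9% and 45.9% for Old and 57.3% and 56.3% for OldAcetate.

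Relative to the median region, none of the 5 passed the test between Old and Young. After each library was centred on its median deviation, the log2 fold change (Old over Young) was −0.01 for Spi1 (95% interval −0.42 to 0.40), −0.34 for Csf1r (−0.82 to 0.13) and 0.18 for Cd68 (−0.17 to 0.52). It was −0.36 for Tyrobp (−0.98 to 0.27) and −0.01 for Coro1a (−0.44 to 0.42). Without Old replicate 1, Csf1r was at −0.58 and Tyrobp at −0.12, and without Old replicate 2 they were at −0.11 and −0.59. In limma, adjusted p-values over all regions were between 0.914 and 0.999, and 0 of 5 regions passed 0.05, against 0.00819% of all regions. The widest interval, that of Tyrobp, reached −0.98. Without centring, the median of all regions moved to −0.35, and 9.52% of all regions but 0 of the 5 passed the test. The lowest adjusted p was then 0.0597, for Csf1r at −0.69 (SE 0.25).

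Between Old and OldAcetate cells, most regions of the table had higher RPM with acetate, and the summed level of the 5 regions was higher too, by a smaller ratio. Mean levels in OldAcetate were 21.4 ± 2.20 RPM for Spi1, 13.0 ± 2.24 RPM for Csf1r, 29.9 ± 3.76 RPM for Cd68, 7.21 ± 3.11 RPM for Tyrobp and 19.9 ± 5.66 RPM for Coro1a (SD, n = 2). Both OldAcetate libraries lay above both Old libraries in 1 of 5 regions (Spi1), compared with 47.1% of all regions, and below in 0 of 5 (3.46% of all regions). The sum over the 5 regions was 91.7 and 90.9 RPM in OldAcetate, 1.12 times that in Old. After median scaling of each library the ratio of the 5 regions turned to 0.942. As deposited, the ratio was 1.19 over all regions, 1.24 over the mesenchymal starts and 1.25 over the ubiquitous ones. The difference between these ratios was not tested.

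In the centred fit, the log2 fold change of OldAcetate over Old was 0.04 for Spi1 (−0.37 to 0.45), −0.17 for Csf1r (−0.65 to 0.30) and −0.13 for Cd68 (−0.48 to 0.22). For Tyrobp it was −0.33 (−0.95 to 0.30) and for Coro1a −0.02 (−0.45 to 0.41). No region of the 5 passed the limma test (adjusted p from 0.919 to 0.995), and the share over all regions was 0%, with 1524 regions at an unadjusted p under 0.05 and 0 calls by edgeR. Without centring, the median of all regions was at 0.24, and 0.311% of all regions and 0 of the 5 passed. The signs of Csf1r, Cd68 and Coro1a were then positive, at 0.07, 0.11 and 0.22.

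Compared with Young, OldAcetate libraries were lower without overlap in 2 of 5 regions (Csf1r and Tyrobp), against 29.8% of all regions, and higher in 0 of 5 (7.6% of all regions). These 2 regions also had the largest centred differences, with a log2 fold change of −0.52 for Csf1r (95% interval −0.996 to −0.041, unadjusted p = 0.0340) and −0.69 for Tyrobp (−1.31 to −0.06, unadjusted p = 0.0324). Neither passed the limma test, with an adjusted p of 0.963 for both. Single libraries moved both values: without OldAcetate replicate 1 they were −0.34 for Csf1r and −1.10 for Tyrobp, and without OldAcetate replicate 2 they were −0.70 and −0.27. Spi1 (0.03, −0.38 to 0.44), Cd68 (0.04, −0.30 to 0.39) and Coro1a (−0.03, −0.46 to 0.40) lay near 0, with adjusted p-values from 0.993 to 0.997. Over all regions the share passing was 0%, with and without centring. The centred fit had 1242 regions at an unadjusted p under 0.05, and edgeR called 0. This comparison shares its Young libraries with the first and its OldAcetate libraries with the second.

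The lists of further markers also had no call in the limma test. No region within 5 kb of a gene of any list passed in any of the 3 comparisons. Over all regions 0.00819%, 0% and 0% passed (Old vs Young, OldAcetate vs Old, OldAcetate vs Young), so this count does not set the lists apart. For OldAcetate over Old, the median log2 fold change was −0.06 over 20 regions of the further macrophage genes, 0.01 over 15 regions of the CSF1R and DAP12 signalling genes and −0.10 over 10 regions of the osteoclast genes. It was −0.13 over the 5 regions described here, 0.02 over 40 mesenchymal regions and 0.00 over all regions. For Old over Young, the medians were −0.01 over the 5 regions, 0.00 over the further macrophage regions, 0.03 over the osteoclast regions and −0.01 over the mesenchymal regions. The medians of the other blood lists ranged from −0.23 over 4 stem and progenitor regions to 0.25 over 3 neutrophil regions.

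Replicates were compared in the 5 regions as a possible sign of macrophage carry-over. Of these regions, 3 could not be assigned to the macrophage gene alone, and the labels do not say whether replicates were separate cultures. Summed over the 5 regions, replicate 1 over replicate 2 was 1.07 in Young, 1.03 in Old and 1.01 in OldAcetate, and over all regions it was 1.12, 1.09 and 1.02. Over the 3 regions at the genes' own starts alone it was 1.10, 1.09 and 0.834. In OldAcetate the sum of these 3 was thus higher in replicate 2 (70.1 against 58.5 RPM), while the regions over neighbouring starts were higher in replicate 1, and both differences cancelled in the sum of 5. Set against the summed level over mesenchymal starts, a separate set of 21 regions, the sum over the 5 regions came to 7.73% and 8.02% of it in Young, against 7.48% and 7.61% for Old and 6.83% and 6.75% for OldAcetate. Per 10000 reads in regions, they held 1.73 and 1.80 reads in Young, against 1.66 and 1.76 for Old and 1.60 and 1.61 for OldAcetate. On both measures the OldAcetate libraries had the lowest values, and the difference between groups was not tested. The 3 own-start regions alone came to 5.37% and 5.44% of the mesenchymal sum in Young, against 5.43% and 5.21% for Old and 4.35% and 5.20% for OldAcetate.

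Single regions differed more between replicates, at counts that leave wide intervals. In Young, the centred log2 differences of replicate 1 minus replicate 2 were −0.15 for Spi1, −0.01 for Csf1r, 0.05 for Cd68, −0.05 for Tyrobp and −0.18 for Coro1a, all inside the SD of 0.33 over all regions. In Old, Csf1r was higher in replicate 1 by 0.47 and Tyrobp in replicate 2, at −0.46, and 20.9% and 21.7% of all regions differed at least as far. In OldAcetate, Tyrobp was higher in replicate 1 by 0.83, as far as or beyond which 2.62% of all regions lay, and Coro1a by 0.55 (10.2%). Their counting intervals were −0.13 to 2.00 and −0.02 to 1.18. Tyrobp had 28 and 12 reads in these libraries, against medians of 48 and 38 over all regions. The share of 2.62% was thus not taken among regions of like count. The 3 regions over the genes' own starts went the other way in OldAcetate, with −0.23 for Spi1, −0.36 for Csf1r and −0.28 for Cd68. All 15 counting intervals included 0, but at 12 to 102 reads a region they are too wide to show that the replicates were alike. A share of macrophages that was the same in both replicates would not be seen in this comparison.

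**Figure D5:**
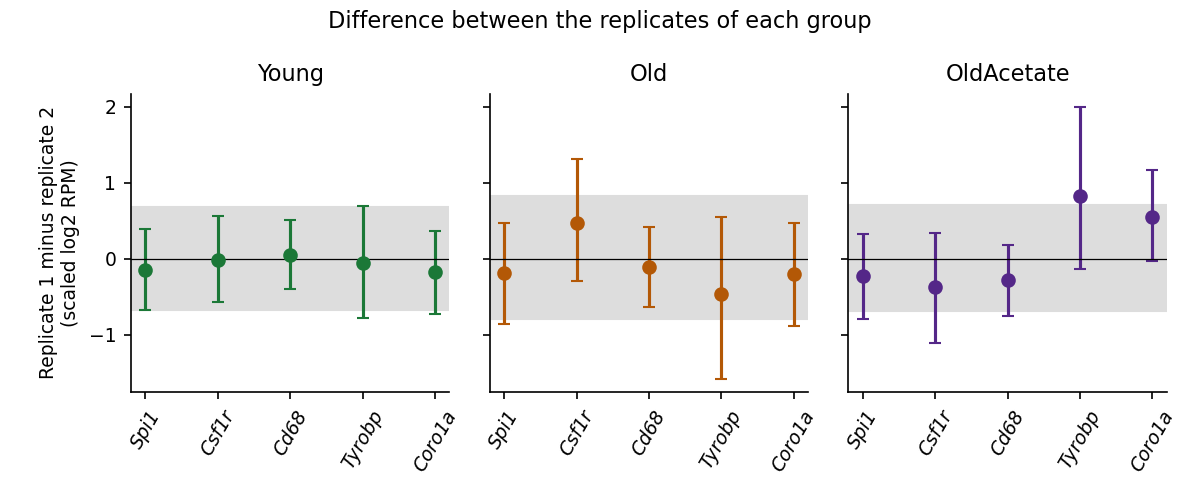
Points show the centred log2 RPM of replicate 1 minus replicate 2 for the 5 regions in each group, with error bars for the 95% counting interval. Grey bands give the range that holds 95% of all regions, whatever their read count. The intervals are wide and each includes 0, and in OldAcetate Tyrobp (0.83) lies above the band while Spi1, Csf1r and Cd68 lie below 0.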

How the data were processed

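H3ac CUT&RUN was analysed in 6 libraries (3 groups of 2). The submitters' processing notes name mm10, Bowtie2 and Picard without versions or roles; the peak caller is not given in the sources used here. The study's text provided describes other experiments, so none of its methods were taken to apply. Per the labels, yeast DNA was added at the stop step; its use for scaling is not stated. The deposited table, which the authors named as RPKM, holds RPM for jointly listed regions: 100% of its values were whole multiples of 1 read (tolerance 0.01), whatever the region length, and the planned test was kept.

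Gene bodies and start sites were taken from GENCODE M21. A region counted as over a start within 1 kb. Levels were compared between genes per kb. Differences were tested with limma 3.58.1 (R 4.3.3) on log2(RPM + 0.5) over all 24431 regions and all libraries, each library centred on its median deviation, with trended robust eBayes and Benjamini-Hochberg adjustment at 0.05. Fold changes on this scale understate changes of low regions. edgeR 4.0.16 on the recovered reads called 5, 0 and 0 regions (Old vs Young, OldAcetate vs Old, OldAcetate vs Young). The limma fit was also run on simulated data, whose outcome is not reported here and is not used as support. Counting intervals are exact at 95% and cover counting error only. Figures used matplotlib 3.10.9.

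The genes and lists were chosen with earlier results of these data known. All 10 genes are named with every region found. From each marker list the genes with a region over a start are named when 6 or fewer, otherwise the 2 densest; some genes this rule takes are not reported here. As alternatives, the pseudocount was set to 0.1 or 1, scaling was omitted or replaced by quantile normalization, the lowest 25% of regions were removed, and the fit was limited to the compared libraries. Others were a replicate block, plain eBayes, edgeR with RLE or TMM factors, other distances to the gene, and leaving out each library, gene or region with other starts.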

Additional observations from a re-analysis of the deposited data

How the results depend on the processing

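No alternative brought a region of the 10 genes past the threshold (0 of 252 fits, lowest adjusted p 0.0597). With 2 libraries a group and 12 to 102 reads a region, only large changes could be called. Called regions over the table numbered 2, 0 and 0 (Old vs Young, OldAcetate vs Old, OldAcetate vs Young). For Old vs Young they were 2327 without scaling, 5 with quantile normalization, 1 with the 4 compared libraries, 0 with plain eBayes (1433 at an unadjusted p under 0.05), and 5 and 6 by edgeR with RLE and TMM factors. For OldAcetate vs Old they were 76, 2 and 2 under the first 3 of these. Leaving out a library gave 0 to 9 (0 without either Old library, 9 without Young replicate 2), 0 to 3 and 0 to 4 calls (the highest of each without Young replicate 2). The causes were not tested. The replicate block gave 2, 0 and 0 calls. The differences of replicate 1 minus replicate 2 were uncorrelated between groups (r = 0.01, −0.03 and −0.04). At a median of 31 to 56 reads per region, counting error may hide a correlation, so this cannot show whether libraries were paired.

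Genes with a region numbered 3 with no extension, with 1 kb, or counting own starts only, 2 without shared starts, and 6 at 20 kb, where Ptprc was added. The summed ratio was 0.972 (Old over Young), 0.942 (OldAcetate over Old) and 0.916 (OldAcetate over Young) after median scaling. Without shared starts it was 0.702 for Old over Young and 0.802 for OldAcetate over Young. Old over Young was 0.788 without Csf1r and 0.706 without Cd68. OldAcetate over Young was 0.819 without Spi1, 0.893 without Csf1r, 0.801 without Cd68 and 0.879 without Tyrobp. Leaving out a library gave 0.731 to 0.785, 1.10 to 1.13 and 0.817 to 0.877.

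Of 147 other member alternatives, 14 changed sign. Without scaling these were Cd68 at −0.17 (Old vs Young), Csf1r at 0.065, Cd68 at 0.11 and Coro1a at 0.22 (OldAcetate vs Old), and Spi1 at −0.081 and Cd68 at −0.067 (OldAcetate vs Young). With edgeR and RLE factors, Spi1 was 0.0058 and Coro1a 0.0050 (Old vs Young), and Coro1a was 0.0295 (OldAcetate vs Old) and 0.0345 (OldAcetate vs Young). With TMM factors these 4 were 0.0030, 0.0022, 0.0323 and 0.0345. Leaving out a library changed 17 of 90 signs. For Old vs Young, the ranges were −0.58 to −0.11 for Csf1r, −0.59 to −0.12 for Tyrobp, −0.10 to 0.084 for Spi1 and −0.11 to 0.088 for Coro1a. For OldAcetate vs Old they were −0.076 to 0.16 for Spi1, −0.41 to 0.062 for Csf1r, −0.27 to 0.0084 for Cd68, −0.74 to 0.084 for Tyrobp and −0.29 to 0.26 for Coro1a. For OldAcetate vs Young they were −0.70 to −0.34 for Csf1r, −1.10 to −0.27 for Tyrobp, −0.084 to 0.15 for Spi1, −0.094 to 0.18 for Cd68 and −0.30 to 0.25 for Coro1a. Removing the lowest 25% of regions removed that of Tyrobp.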
